A study of Mus musculus with 3 samples.

Results

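Expression of BCL2 family genes was read in macrophages from mice bearing 4T1 tumors. 4T1 is a mammary carcinoma line from BALB/c mice that spreads to the lung, and it was placed in the mammary fat pad of mice of that strain aged 5 to 6 weeks. The members were 10 genes, whose probe sets were taken by gene symbol. They were 3 anti-apoptotic genes (*Mcl1*, *Bcl2l1* and *Bcl2*), the effector *Bak1* and another effector, and 5 BH3-only genes (*Pmaip1*, *Bcl2l11*, *Bmf*, *Bid* and *Bbc3*). The other effector had no probe set carrying its symbol alone and is not analysed here, which left 9 genes with 30 of the 45037 probe sets. In all, 18193 genes had a probe set with a single symbol.

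There were 3 arrays, 1 in each group. mTAMs were tumor-associated macrophages from the metastatic lung and pTAMs were those from the matched primary tumor, both taken 5 weeks after inoculation. BMDM were macrophages differentiated in culture from the marrow of healthy mice and carried no tumor. Every group was sorted on CD11b and on the macrophage antigen encoded by *Adgre1*, the TAMs after enzymatic digestion of the tissue and Percoll separation. The labels name no allele or drug for any group. The sources used here do not say how many mice gave each array or whether mice were pooled. A group of 1 array allows no test and no error across animals, so each difference compares 2 arrays. The only spread at hand is between probe sets of the same gene, whose log2 differences had an SD of 0.52 (mTAMs against BMDM), 0.42 (pTAMs against BMDM) and 0.28 (mTAMs against pTAMs). Variation between mice, sorts and arrays is not in it.

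BCL2 family proteins decide whether the outer mitochondrial membrane is opened, which releases cytochrome c and starts the caspase cascade. Anti-apoptotic members (MCL1, BCL-XL, BCL2) hold the pore-forming effectors in check, and BH3-only members bind the anti-apoptotic proteins or act on the effectors themselves. Neutrophils are known to depend on short-lived MCL1, and the BH3-only protein BIM (*Bcl2l11*) is known for killing hematopoietic cells that lose their cytokines. Many steps of this pathway act on the proteins, which arrays do not measure.

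The promoters of *Mcl1* and *Bcl2l11* are shown because an anti-apoptotic gene and its BH3-only antagonist were both called higher in mTAMs than in BMDM. The sequences are RefSeq windows of 250 bases before an annotated start (build GRCm38.p6), written 5′ to 3′ on the strand of the gene, which is the plus strand in all 3 windows. Capitals mark matches on either strand to GTAAACA, the core that FOXO factors bind, or CCGGAAG, a core that ETS factors bind.
Mcl1, chr3:95658471-95658720: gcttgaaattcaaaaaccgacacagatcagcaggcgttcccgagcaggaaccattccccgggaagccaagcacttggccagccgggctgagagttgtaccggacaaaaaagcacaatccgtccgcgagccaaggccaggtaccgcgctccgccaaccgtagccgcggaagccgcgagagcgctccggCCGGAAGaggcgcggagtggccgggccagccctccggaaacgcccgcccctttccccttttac
Bcl2l11, start 1, chr2:128125788-128126037: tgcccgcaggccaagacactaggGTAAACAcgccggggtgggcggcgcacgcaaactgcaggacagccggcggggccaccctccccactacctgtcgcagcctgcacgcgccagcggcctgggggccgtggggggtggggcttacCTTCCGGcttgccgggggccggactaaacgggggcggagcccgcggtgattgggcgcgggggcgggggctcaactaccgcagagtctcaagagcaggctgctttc
Bcl2l11, start 2, chr2:128127325-128127574: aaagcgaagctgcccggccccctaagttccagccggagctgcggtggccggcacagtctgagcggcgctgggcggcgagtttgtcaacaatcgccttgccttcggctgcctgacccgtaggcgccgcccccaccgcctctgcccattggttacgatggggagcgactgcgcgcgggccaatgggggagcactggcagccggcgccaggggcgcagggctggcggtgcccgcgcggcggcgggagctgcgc
The *Mcl1* window held CCGGAAG, with its first base 63 bases before the start. The first *Bcl2l11* window held GTAAACA at 227 bases before the start and CCGGAAG on the other strand at 105 bases, and the second window held neither. Of all 32851 windows of this length, 3.17% held GTAAACA and 6.91% held CCGGAAG. These matches do not overlap one another, and a match describes the letters alone.

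The same search left out *Pmaip1* and covered 15 windows of 8 members, on both strands, with further motifs. They were TGANTCA (AP-1, in 6.75% of all windows), TGACGTCA (cyclic AMP response element, 1.55%), ACGTG (the hypoxia response core, 16.6%), the NF-kappaB motif (3.9%) and the CArG box (1.47%). TGANTCA, TGACGTCA and the CArG box were found in no window of the members searched. The NF-kappaB motif lay in a window of *Bcl2l1* and at 2 overlapping positions in a window of *Bbc3*, whose other windows held GTAAACA on the other strand and ACGTG on both strands of one palindrome. The windows of *Bcl2*, *Bak1*, *Bid* and *Bmf* held no match.

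Levels are RMA values on the log2 scale, so a difference of 1 is 2-fold. The background level was 5.56, set from probe sets of olfactory, vomeronasal and taste receptors. These were assumed to be mostly silent in the cells, which was not tested. A gene was compared where its value was above this on at least 1 of the 2 arrays, and was called higher or lower at 2-fold. The value of a gene is that of its probe set with the highest mean. All 9 genes were above background on all 3 arrays, with *Bmf* in BMDM just above it at 5.64.

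Against BMDM, 4 of the 9 genes were called higher in mTAMs (*Pmaip1*, *Bcl2l11*, *Mcl1* and *Bmf*), where 12.0% of all 11305 genes compared were. One gene, *Bak1*, was called lower (1 of 9), where 15.1% of all genes were. In pTAMs, 3 of the 9 genes were called higher than in BMDM (*Pmaip1*, *Bcl2l11* and *Bmf*), where 9.21% of all 11229 genes were, and 1 was called lower (*Bid*), where 7.85% of all genes were. These comparisons share the BMDM array. Between mTAMs and pTAMs, 2 of the 9 genes were called higher in mTAMs (*Pmaip1* and *Bid*), where 5.59% of all 11141 genes were, and 0 were called lower, where 2.71% of all genes were. The median over the 9 genes was -0.23 for mTAMs against BMDM, -0.14 for pTAMs against BMDM and 0.13 for mTAMs against pTAMs, beside -0.14, -0.07 and -0.08 over all genes. With so few members these counts describe the genes and set no rule for the family.

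**Figure D1:**
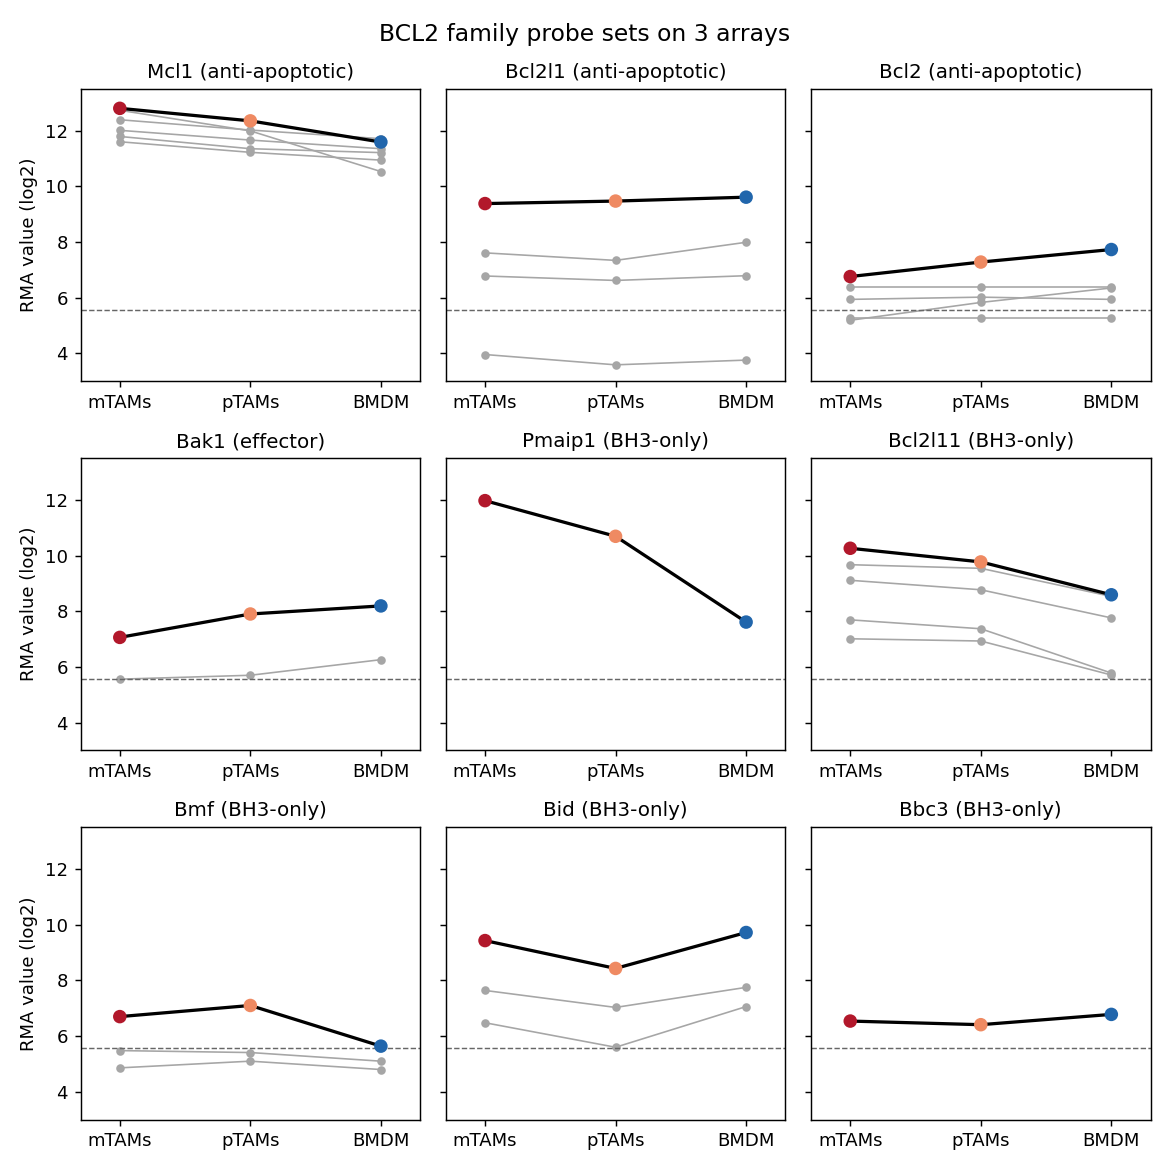
RMA values (log2, vertical axis) of all 30 probe sets of 9 BCL2 family genes on the mTAMs, pTAMs and BMDM arrays, with the highest-mean probe set of each gene in black and colored points, the others in gray, and the background level of 5.56 dashed. Pmaip1 and all 5 probe sets of Bcl2l11 run downward to BMDM, Bak1 runs upward, and Bid dips in pTAMs.

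Among the BH3-only genes, 3 of 5 were called higher and 0 lower in mTAMs against BMDM, where 12.0% of all genes were higher and 15.1% lower. In pTAMs against BMDM, 3 of 5 were called higher (9.21% of all genes) and 1 of 5 lower (*Bid*, 7.85% of all genes). Their median log2 difference was 1.06 for mTAMs against BMDM, 1.18 for pTAMs against BMDM and 0.49 for mTAMs against pTAMs. *Pmaip1* encodes NOXA, which binds MCL1 and promotes its breakdown. Its single probe set (1418203_at) read 11.97 in mTAMs, 10.69 in pTAMs and 7.61 in BMDM. It was the widest spread of levels over the 3 arrays among the 9 genes. *Pmaip1* was 20.5-fold higher in mTAMs than in BMDM (log2 difference 4.36), and 1.3% of all genes compared had a larger positive difference. *Pmaip1* in pTAMs was 8.46-fold higher than in BMDM (3.08), and it was 2.43-fold higher in mTAMs than in pTAMs (1.28). No second probe set of the gene was there to check it against.

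*Bcl2l11* encodes BIM, which binds all the anti-apoptotic proteins named here. It read 10.26 in mTAMs, 9.77 in pTAMs and 8.59 in BMDM on its main probe set (1456005_a_at). That made it 3.18-fold higher in mTAMs than in BMDM and 2.27-fold higher in pTAMs. All 5 of its probe sets were past 2-fold in the same direction, at 1.14 to 1.91 for mTAMs against BMDM and 1.01 to 1.59 for pTAMs against BMDM. Between mTAMs and pTAMs they differed by 0.08 to 0.49, the highest of which is past the spread of 0.28 and short of 2-fold.

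*Bmf* encodes a BH3-only protein that is held at the cytoskeleton by the dynein light chain DYNLL2. It read 6.70 in mTAMs, 7.10 in pTAMs and 5.64 in BMDM on the only one of its 3 probe sets above background (1454880_s_at), whose name marks it as shared between transcripts. It was 2.08-fold higher in mTAMs than in BMDM and 2.75-fold higher in pTAMs than in BMDM, from a BMDM value near background. The call in mTAMs ended with arrays centred on their medians, at 0.99, and with the mean of the probe sets, at 0.50, which also ended the call in pTAMs, at 0.69. The log2 difference of mTAMs from pTAMs was -0.40.

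*Bid* encodes the protein that caspase-8 cuts to carry a death receptor signal to mitochondria. It read 9.43 in mTAMs, 8.43 in pTAMs and 9.72 in BMDM (1417045_at), so pTAMs stood below the other arrays. *Bid* was 2.45-fold lower in pTAMs than in BMDM (log2 difference -1.29), within 2-fold in mTAMs against BMDM (-0.29), and exactly 2-fold higher in mTAMs than in pTAMs (1.00). Its 3 probe sets gave -1.46 to -0.72 for pTAMs against BMDM and 0.61 to 1.00 for mTAMs against pTAMs, so pTAMs were lowest on each, while not each passed 2-fold. With the mean of its probe sets, *Bid* was 0.83 log2 units higher in mTAMs than in pTAMs, which ended that call. *Bbc3*, which encodes the p53-induced PUMA, read 6.54 in mTAMs, 6.41 in pTAMs and 6.78 in BMDM (1423315_at). None of its differences passed 2-fold or the spread between probe sets.

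**Figure D2:**
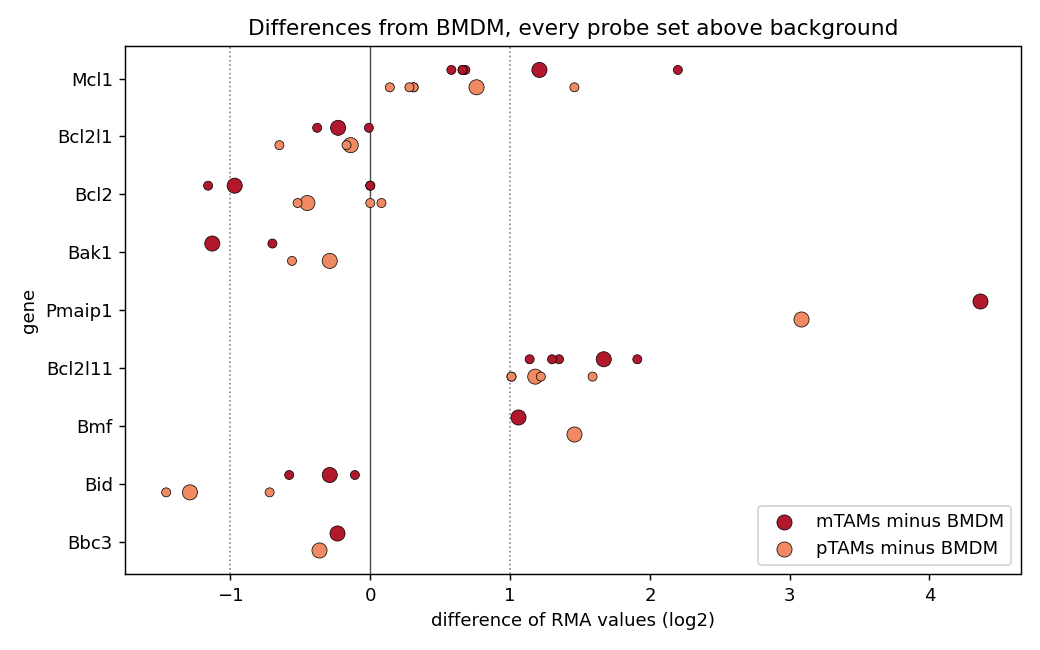
Log2 differences from BMDM (horizontal axis) of every probe set above background, for mTAMs (dark red, upper row of each gene) and pTAMs (orange, lower row), with large points for the highest-mean probe set and dotted lines at 2-fold. All 5 Bcl2l11 probe sets lie past 2-fold, while those of Mcl1 spread from 0.58 to 2.20 in mTAMs.

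Among the anti-apoptotic genes, 1 of 3 was called, *Mcl1* in mTAMs against BMDM, where 12.0% of all genes were called higher. *Mcl1* read 12.80 in mTAMs, 12.35 in pTAMs and 11.59 in BMDM (1448503_at), which made it 2.31-fold higher in mTAMs than in BMDM. In pTAMs it was 1.69-fold higher than in BMDM, short of 2-fold and past the spread between probe sets. The size of its difference depended on the probe set: all 6 read highest in mTAMs and lowest in BMDM, at 0.58 to 2.20 for mTAMs against BMDM, 0.14 to 1.46 for pTAMs against BMDM and 0.35 to 0.74 for mTAMs against pTAMs. Of these, only 1448503_at and 1416881_at passed 2-fold in mTAMs against BMDM. Only the same probe sets passed the spread of 0.42 in pTAMs against BMDM.

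*Bcl2l1*, the gene of BCL-XL, read 9.38 in mTAMs, 9.47 in pTAMs and 9.61 in BMDM (1420888_at). Its differences of -0.23 for mTAMs against BMDM, -0.14 for pTAMs against BMDM and -0.09 for mTAMs against pTAMs were all within the spread between probe sets. Cyclic loess normalization turned the first to 0.01 and the last to 0.03, and the mean of all probe sets turned the last to 0.18. Another *Bcl2l1* probe set (1420887_a_at) gave -0.65 for pTAMs against BMDM, past the spread of 0.42. *Bcl2* itself read 6.76 in mTAMs, 7.28 in pTAMs and 7.73 in BMDM (1457687_at). It was 1.96-fold lower in mTAMs than in BMDM (log2 difference -0.97), just short of the call. A further probe set (1437122_at) gave -1.16 for mTAMs against BMDM and lay below background in mTAMs, while 2 others above background gave 0 for the same comparison.

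*Bak1* encodes BAK, which sits in the outer mitochondrial membrane and forms the pore. It read 7.06 in mTAMs, 7.90 in pTAMs and 8.19 in BMDM (1418991_at). It was thus 2.19-fold lower in mTAMs than in BMDM (log2 difference -1.13), 1.79-fold lower in mTAMs than in pTAMs (-0.84), and it differed by -0.29 in pTAMs against BMDM, within the spread. The other probe set (1425716_s_at) gave -0.70 for mTAMs against BMDM and -0.14 against pTAMs, also lower in mTAMs and short of 2-fold. On it, pTAMs against BMDM gave -0.56, past the spread of 0.42, and the mTAMs value was at background. The call of *Bak1* ended after cyclic loess normalization, at -0.97, and with the mean of its probe sets, at -0.92.

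**Figure D3:**
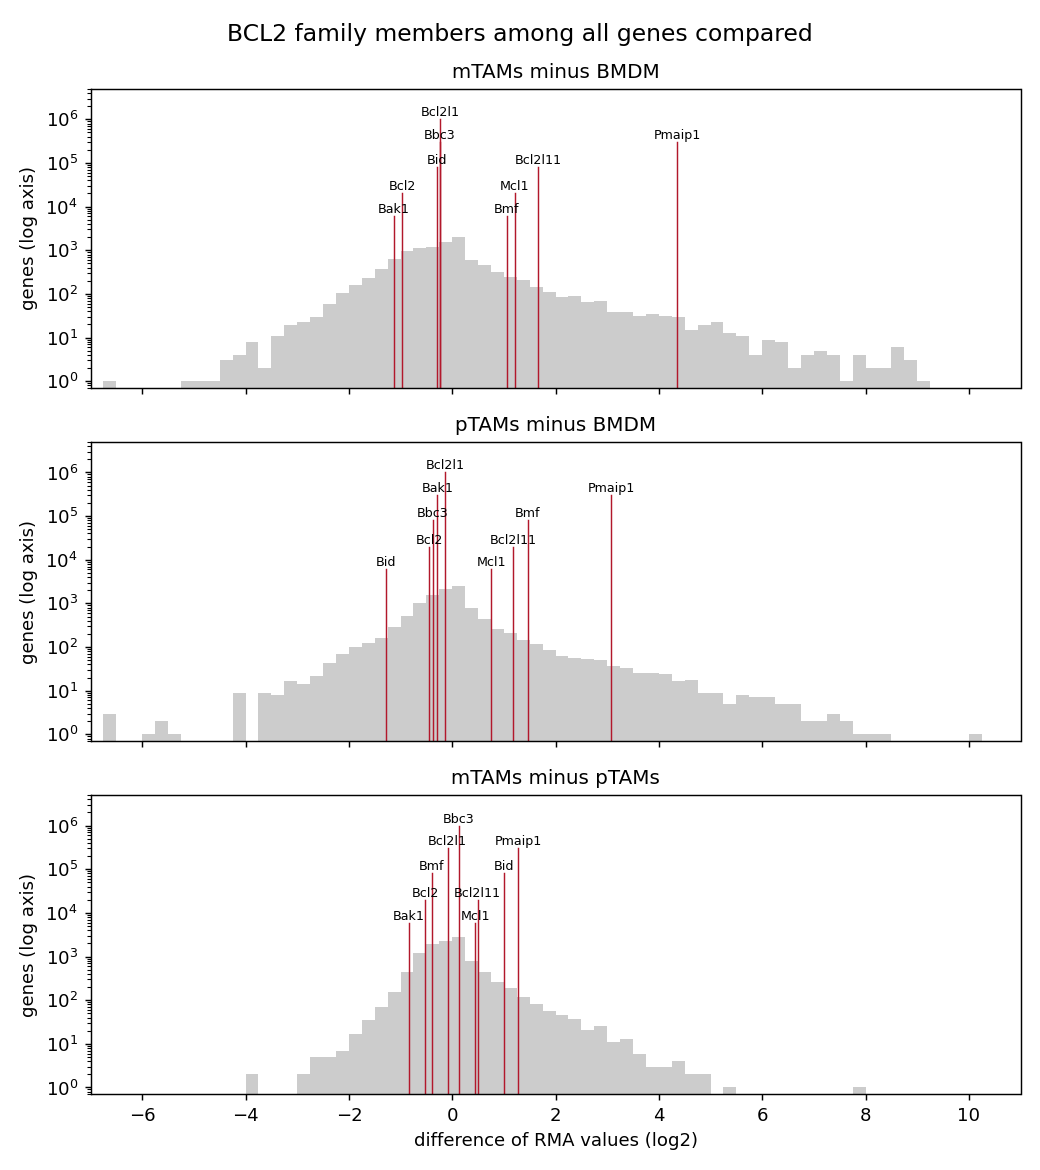
Histograms of the log2 differences of all genes compared (horizontal axis, number of genes on a log axis) for mTAMs minus BMDM, pTAMs minus BMDM and mTAMs minus pTAMs, with red lines at the BCL2 family members. Pmaip1 lies in the upper tail in each panel, at 4.36, 3.08 and 1.28, while Bcl2l1 lies near the middle.

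Antagonists can be set against each other only by how far each moved, since levels of different probe sets are not on a common scale, and each value here rests on the highest-mean probe set of both genes unless said otherwise. *Pmaip1* moved above its target *Mcl1* by 3.15 log2 units in mTAMs against BMDM and by 2.32 in pTAMs against BMDM. *Bcl2l11* moved above *Mcl1* by 0.46 in mTAMs against BMDM and by 0.42 in pTAMs against BMDM. The spread between probe sets of a single gene was 0.52 and 0.42 there. A gap between genes carries the spread of both, so neither gap is past it. The gap in mTAMs depends on the *Mcl1* probe set, since 4 of the 6 gave 0.58 to 0.68 for mTAMs against BMDM, where all 5 of *Bcl2l11* gave 1.14 or more. With the mean of all probe sets, *Bcl2l11* differed by 1.47 and *Mcl1* by 1.00 in mTAMs against BMDM, and *Bcl2l11* by 1.20 and *Mcl1* by 0.54 in pTAMs against BMDM. Against *Bcl2*, *Bcl2l11* moved up by 2.64 in mTAMs against BMDM and by 1.63 in pTAMs against BMDM. Against *Bcl2l1*, it moved up by 1.90 and 1.32 in the same comparisons. *Mcl1* moved above *Bcl2* by 2.18 in mTAMs against BMDM and by 1.21 in pTAMs against BMDM. Within TAMs, *Bcl2l11* moved above *Bcl2* by 1.01 in mTAMs against pTAMs, and above *Mcl1* by 0.04. The gaps to *Bcl2* depend on its probe set. With the mean of all probe sets, *Bcl2* differed by -0.43 in mTAMs against BMDM and by -0.18 in pTAMs against BMDM. In mTAMs against pTAMs, that mean gave -0.25 for *Bcl2*, 0.27 for *Bcl2l11* and 0.45 for *Mcl1*. By that mean, *Bcl2l11* moved less than *Mcl1* in mTAMs against pTAMs.

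The further family genes were mostly near their BMDM values. Of 10 other pro-apoptotic genes compared, 2 were called higher and 1 lower in mTAMs against BMDM, near the shares over all genes of 12.0% higher and 15.1% lower. In pTAMs against BMDM, 2 were called higher and 0 lower, beside 9.21% and 7.85%. Of 9 compared in mTAMs against pTAMs, 0 were called higher and 1 lower (*Bnip3*), beside 5.59% and 2.71%. The same shares stand beside the counts of the lists that follow. *Bnip3*, a hypoxia-induced protein of the mitochondrial surface, read 11.33 in mTAMs, 12.44 in pTAMs and 9.32 in BMDM, so here pTAMs were highest. *Bcl2l15* read 5.99 in mTAMs and 5.60 in pTAMs, against 3.66 in BMDM, which is below background, so it was at least 1.35-fold higher in mTAMs and at least 1.03-fold higher in pTAMs, and its calls rest on the measured BMDM value. *Bnip1*, which acts at the endoplasmic reticulum, read 6.69 in mTAMs, 7.13 in pTAMs and 7.81 in BMDM and was called lower in mTAMs. *Bok*, a relative of the effectors, read 7.45 in mTAMs, 8.20 in pTAMs and 7.29 in BMDM and was not called. The anti-apoptotic *Bcl2l2* (BCL-W) read 6.97 in mTAMs, 7.87 in pTAMs and 8.07 in BMDM and was called lower in mTAMs than in BMDM. *Bcl2l10* was below background on all arrays. The rest (*Bad*, *Bik*, *Hrk*, *Bcl2l12*, *Bcl2l13* and *Bcl2l14*) differed by less than 2-fold in each comparison.

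Downstream of the pore, 2 of 7 genes of the mitochondrial release machinery were called lower in mTAMs against BMDM (15.1% over all genes) and 1 of 7 in pTAMs against BMDM (7.85%), with 0 higher in either. Counts this small lie near those shares. *Htra2*, a protease that relieves the block on caspases, read 8.60 in mTAMs, 8.89 in pTAMs and 10.08 in BMDM. *Cycs*, the gene of cytochrome c, read 11.27 in mTAMs, 11.69 in pTAMs and 12.32 in BMDM. Of 3 caspases compared, *Casp6*, an executioner, was called higher, at 9.67 in mTAMs and 9.73 in pTAMs against 7.91 in BMDM. *Casp9*, which the apoptosome activates, read 8.21 in mTAMs, 8.31 in pTAMs and 8.35 in BMDM. Of 7 inhibitors of apoptosis, 2 were called higher in mTAMs against BMDM, 2 in pTAMs against BMDM and 1 in mTAMs against pTAMs. *Birc3* (cIAP2), a ubiquitin ligase that holds back cell death from TNF receptors, read 11.71 in mTAMs, 10.58 in pTAMs and 8.44 in BMDM. *Xiap*, a direct caspase inhibitor, read 10.15 in mTAMs, 10.06 in pTAMs and 10.17 in BMDM.

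Among 9 genes of the mitochondrial pore and its dynamics, 1 was called lower in mTAMs against BMDM and 0 were called in pTAMs against BMDM. The one was *Opa1*, which keeps the cristae closed, at 8.40 in mTAMs, 8.93 in pTAMs and 9.48 in BMDM. In mTAMs against pTAMs, 0 were called higher and 1 lower, *Vdac1*, at 10.53 in mTAMs and 11.57 in pTAMs. Of 6 death receptor genes compared, *Fas* alone was called higher in mTAMs against BMDM, at 8.78 in mTAMs, 6.96 in pTAMs and 6.0 in BMDM. *Ripk3*, the necroptosis kinase, read 8.66 in mTAMs, 9.77 in pTAMs and 9.55 in BMDM and was called lower in mTAMs than in pTAMs.

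Of 9 p53 targets compared in mTAMs against BMDM, 3 were called higher and 2 lower, with a median of -0.20. In pTAMs against BMDM, 1 of 8 was called higher and 1 lower, with a median of -0.33. In mTAMs against pTAMs, 3 of 9 were called higher (5.59% over all genes) and 0 lower (2.71%), with a median of 0.58 beside -0.08 over all genes. *Gadd45a*, also a stress gene, read 11.35 in mTAMs, 9.25 in pTAMs and 5.64 in BMDM, while *Cdkn1a*, the cell cycle inhibitor p21, read 10.93 in mTAMs, 11.34 in pTAMs and 11.31 in BMDM. Of 9 transcription factors acting on BH3-only genes, 3 were called higher and 1 lower in mTAMs against BMDM, with the same numbers in pTAMs against BMDM. *Ddit3* (CHOP), the stress factor of the unfolded protein response, read 11.06 in mTAMs, 9.55 in pTAMs and 8.47 in BMDM. *Foxo3*, a FOXO factor, read 9.26 in mTAMs, 8.89 in pTAMs and 8.68 in BMDM and was not called. *Dynll2*, whose protein anchors BMF, read 8.07 in mTAMs, 8.72 in pTAMs and 9.77 in BMDM and was called lower than in BMDM in both TAM groups.

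Among 7 genes compared of those listed for MCL1 turnover, 1 was called higher in each comparison. It was *Trib1*, a pseudokinase that guides the ligase COP1, at 9.42 in mTAMs, 8.40 in pTAMs and 6.34 in BMDM. These arrays show no link of *Trib1* to MCL1. The other genes compared on this list, among them the ligase *Huwe1* and the deubiquitinase *Usp9x*, were within 2-fold. Of 13 survival signals of myeloid cells, 5 were called higher in mTAMs against BMDM, 5 in pTAMs against BMDM and 0 lower. *Pim1*, a survival kinase, read 12.12 in mTAMs, 10.99 in pTAMs and 7.79 in BMDM. *Csf2rb*, the shared receptor chain for GM-CSF, IL-3 and IL-5, read 12.29 in mTAMs, 11.96 in pTAMs and 9.46 in BMDM. *Csf3r*, the G-CSF receptor gene, which is also a neutrophil marker, read 12.52 in mTAMs, 10.02 in pTAMs and 6.28 in BMDM. *Csf1r*, the receptor that macrophages depend on, read 12.89 in mTAMs, 13.27 in pTAMs and 13.35 in BMDM. Of 11 chaperones and binding partners, 2 were called lower in mTAMs against BMDM (*Itpr3* and *Bag1*) and 0 in pTAMs against BMDM. In mTAMs against pTAMs, 0 were called higher and 1 lower (*Itpr3*). Of 3 genes of BIM kinases and turnover, *Dynll2* was the one called.

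Other lists moved along with these genes, and their part in the differences was not tested. Immediate early and heat shock genes, which tissue digestion and sorting can also induce, averaged 12.02 in mTAMs, 11.31 in pTAMs and 8.18 in BMDM, with 16 of 18 called higher in mTAMs against BMDM, 15 in pTAMs against BMDM and 4 in mTAMs against pTAMs. Neutrophil markers averaged 11.88 in mTAMs, 9.97 in pTAMs and 6.62 in BMDM, with 8 of 8 called higher in mTAMs against BMDM, 7 in pTAMs against BMDM and 6 in mTAMs against pTAMs. *S100a8* and *S100a9*, which are abundant in neutrophils, read 14.20 and 14.30 in mTAMs, 13.47 and 13.75 in pTAMs, and 8.76 and 7.73 in BMDM. *Cxcr2* read 11.32 in mTAMs, 8.18 in pTAMs and 5.14 in BMDM, the last at background, as was *Mpo*. *Pmaip1*, *Bcl2l11* and *Mcl1* had the same order of arrays as the means of these lists, highest in mTAMs and lowest in BMDM. That order is not particular to these lists. Means of survival signals of myeloid cells, p53 targets and fibroblast markers had it too, while those of macrophage markers and cell cycle genes did not. Because these are bulk samples, fewer cells of a type and less RNA per cell cannot be told apart.

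Cell cycle genes averaged 8.54 in mTAMs, 8.64 in pTAMs and 10.62 in BMDM, with 15 of 15 called lower in each TAM group against BMDM. All 6 macrophage markers were above background on all arrays, averaging 11.07 in mTAMs, 11.44 in pTAMs and 11.32 in BMDM. The mean hides members that went both ways, with 2 called higher and 1 lower in mTAMs against BMDM, and 3 higher and 1 lower in pTAMs against BMDM. In mTAMs against pTAMs, 0 were called higher and 1 lower (*Fcgr1*). *Mertk*, a receptor for dying cells, read 9.20 in mTAMs, 9.31 in pTAMs and 8.18 in BMDM. *Cd68*, a lysosomal marker, was 1.96-fold lower than in BMDM in each TAM group, just short of the call. *Adgre1*, the gene of a sort marker, read 10.06 in mTAMs, less by 0.06 in pTAMs, and 11.93 in BMDM, and *Itgam* (CD11b) read 11.61 in mTAMs, 11.90 in pTAMs and 10.46 in BMDM. Epithelial or carcinoma markers averaged 7.49 in mTAMs, 8.40 in pTAMs and 4.95 in BMDM, with 1, 0 and 5 of 6 at background on the arrays in that order. Fibroblast markers averaged 8.13 in mTAMs, 6.48 in pTAMs and 4.96 in BMDM, with 1, 2 and 6 of 6 at background. Mast cell or basophil markers averaged 6.40 in mTAMs, 4.01 in pTAMs and 4.09 in BMDM, with 2, 4 and 4 of 4 at background. T cell markers averaged 6.42 in mTAMs, 5.70 in pTAMs and 5.75 in BMDM, and all 4 NK cell markers were at background on every array. Of 4 T cell markers compared in mTAMs against pTAMs, *Cd3d* and *Cd2* were called higher, and the others were not called. B cell markers averaged 6.01 in mTAMs, 5.73 in pTAMs and 5.57 in BMDM, and endothelial markers 5.39 in mTAMs, 5.80 in pTAMs and 5.04 in BMDM.

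**Figure D4:**
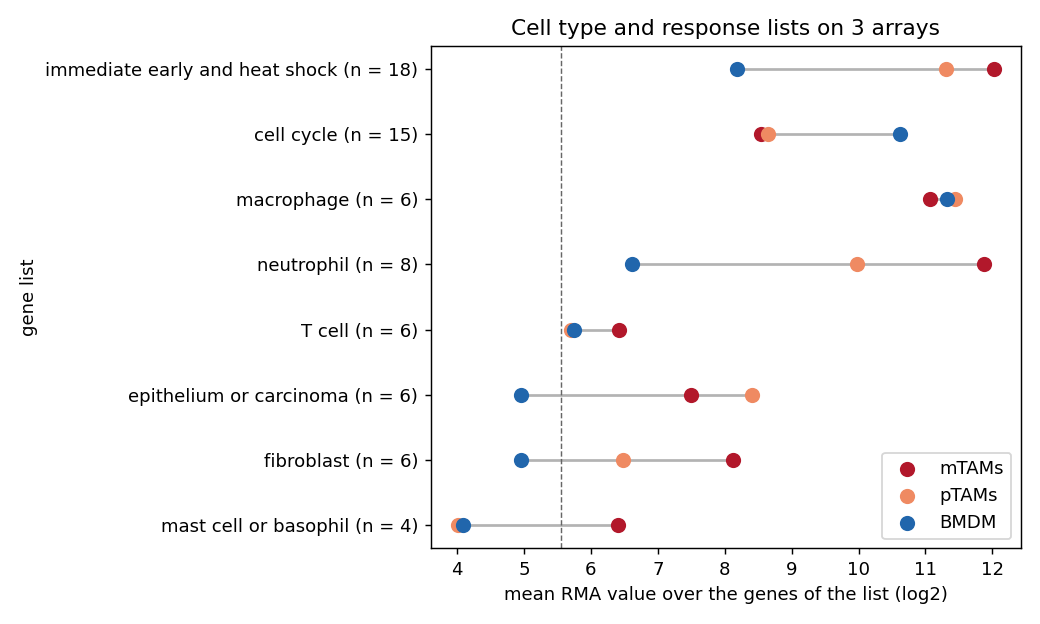
Mean RMA value (log2, horizontal axis) over the genes of 8 cell type and response lists on the mTAMs, pTAMs and BMDM arrays, with n the genes in each list and the background level dashed. Immediate early and neutrophil lists are highest in mTAMs and lowest in BMDM, cell cycle genes are highest in BMDM, and the macrophage means lie between 11.07 and 11.44.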

How the data were processed

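Total RNA of mTAMs, pTAMs and BMDM was hybridised to Affymetrix mouse whole-genome arrays. The authors deposited log2 values of each probe set after robust multi-array averaging (RMA), which corrects background, normalizes quantiles between arrays and summarizes probes. The sources used here give no version. Values are rounded to 2 decimals, and 21.4% of probe sets had one value on all arrays. Quantile normalization hides a shift of the whole transcriptome. Probe sets with a single symbol on the platform annotation (34945) were used, not those with several (932) or none (9160), and all 30 member probe sets matched RefSeq by gene ID.

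The background level was the 95th percentile of 84 olfactory, vomeronasal and taste receptor probe sets, 5.56. It was first rounded to 1 decimal, and the second decimal was kept after results had been seen. A difference is the first array named minus the second, called at 2-fold. The number of arrays limits the precision. All members, all other family genes, and up to 3 called genes per list with the largest differences were eligible to be named. *Cdkn1a*, *Casp9*, *Xiap*, *Foxo3*, *Huwe1* and *Usp9x*, which were not called, were picked after their values were seen. Members and lists were chosen with earlier results of these data known. Alternatives were other normalizations, probe set choices, background levels and thresholds. The calling step was tested on simulated data, where a first bound on the share recovered was missed and was replaced by one set from the simulated noise. Python 3.11.15, numpy 2.4.6, pandas 2.3.3, matplotlib 3.10.9, R 4.3.3 and limma 3.58.1 (normalization only) were used.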

Additional observations from a re-analysis of the deposited data

How the results depend on the processing

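In mTAMs against BMDM, the 1 member called lower became 2 with arrays centred on their medians and 2 at 1.5-fold (*Bcl2* joined *Bak1*), and 0 after cyclic loess, with the mean of all probe sets and at 3-fold. The 4 called higher became 3, without *Bmf*, with arrays centred on their medians, with the mean of all probe sets and without probe sets marked as shared, and 2 at 3-fold. In pTAMs against BMDM, the 3 called higher became 2, without *Bmf*, with the mean of all probe sets and without probe sets marked as shared, 4 at 1.5-fold (*Mcl1* joined) and 1 at 3-fold (*Pmaip1*), and 3-fold left 0 called lower. In mTAMs against pTAMs, the members called higher became 1 (*Pmaip1*) with the mean of all probe sets and 0 at 3-fold, and 1 was called lower at 1.5-fold (*Bak1*). Of 132 differences of single members under other normalizations and probe set choices, 126 moved by less than the spread between probe sets and 6 by more, and no called one changed sign. Without probe sets marked as shared, *Bmf* was not compared, because its only unmarked probe set (1422995_at) was below background on all arrays. That probe set differed from BMDM by 0.06 in mTAMs and by 0.3 in pTAMs. Cyclic loess moved the median of all genes in mTAMs against BMDM to 0.00, against -0.14 as deposited, and the share of called genes that were higher to 56.8%, against 44.3%. The 1-decimal background of 5.6, added after seeing the data, changed no count of members. Over all genes in mTAMs against BMDM, 1950 were higher and 3385 lower at 1.5-fold and 853 and 574 at 3-fold, beside 1354 and 1705 at 2-fold. No paired analysis was possible because each group has 1 array, and no replicate could be left out.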
